A study of Saccharomyces cerevisiae with 4 samples.

Results

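The shape of open chromatin at transfer RNA (tRNA) genes was described from the ATAC-seq peaks of 4 budding yeast libraries. A peak was taken where it overlapped 1 of the 275 nuclear tRNA genes of the R64 annotation by at least 1 bp. This gave 178 and 132 peaks in the wild-type (WT) libraries, replicates 1 and 2, and 236 and 186 in the libraries from cells lacking SWC4 (swc4Δ). They were 732 of the 9663 peaks in all 4 lists and touched 249 of the 275 tRNA genes. Each peak touched 1 tRNA gene, apart from 4, 2, 5 and 5 peaks, in the same order, that touched 2. Each touched gene met exactly 1 peak per library, so there were 182, 134, 241 and 191 pairs of a gene and a peak. The smallest overlap that made a peak a member was 11, 8, 16 and 19 bp, and the nearest peak left out ended 10, 1, 26 and 18 bp from a tRNA gene.

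All 4 libraries came from strain BY4741, grown at 30 °C to mid-logarithmic phase (OD600 of about 1.0), and the genotypes differ in the SWC4 deletion. Swc4 is a subunit shared by SWR1, a chromatin remodeller that deposits the histone H2A variant Htz1, and NuA4, a histone acetyltransferase. In ATAC-seq the transposase Tn5 cuts and tags accessible DNA. Each genotype had 2 libraries, and nothing in the labels said that they came from separate cultures, so their spread may be technical.

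tRNA genes are transcribed by RNA polymerase III from a promoter that lies inside the gene. The factor TFIIIC binds the internal A and B boxes and places TFIIIB just upstream of the start, where it recruits the polymerase. Active tRNA genes are short, largely free of nucleosomes and flanked by positioned ones, and many stand close to the promoters of protein-coding genes. The tRNA genes here were 71 to 133 bp long, with a median of 73 bp. Members of a family are near-identical, and the treatment of multiply matching reads, which bears on every peak at them, is not stated in the sources used here.

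List sizes were 2354, 2115, 2826 and 2368 peaks (WT first), and peaks at tRNA genes made up 7.56%, 6.24%, 8.35% and 7.85% of them. WT replicate 2 had the fewest peaks and swc4Δ replicate 1 the most. Each peak carried the authors' fold of its summit over background, and the folds of a library lay on an evenly spaced ladder. Reading each step as 1 fragment gave background pileups of 22.6, 24.0, 24.4 and 25.5 fragments. Summits of peaks that overlap a tRNA gene had 40 to 198 fragments, wherever in the peak the summit lay. A summit of 60 fragments, the median at tRNA genes in WT replicate 1, has a 95% Poisson interval of 45.8 to 77.2, which covers counting error only. SWC4 and its promoter had no peak in any list (0 of 4 libraries), which leaves the labels unchecked.

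A peak was present at 66.2% and 48.7% of tRNA genes in WT, against 87.6% and 69.5% in swc4Δ. The genotypes did not overlap, but swc4Δ replicate 2 stood only just above WT replicate 1. Means were 57.5% ± 12.3 (SD, n = 2) and 78.5% ± 12.9 (SD, n = 2). The difference of 21.1 points had p = 0.333 (exact permutation of 2 against 2 libraries, two-sided), and no smaller p is possible with so few libraries. The shares ran in the order of the list sizes, and with equal numbers of peaks per list the difference was 15.3 points. It was 12.4 points without WT replicate 2, 12 without swc4Δ replicate 1 and 30.2 without swc4Δ replicate 2. It was 14 points without chromosomes IV, V, VIII and XI. These chromosomes, singled out from earlier results, hold 75 of the tRNA genes, and their shares were 62.7%, 38.7%, 89.3% and 92%, with swc4Δ replicate 2 the highest. Over the 200 genes of the other 12 chromosomes the shares were 67.5%, 52.5%, 87.0% and 61.0%, and the genotypes overlapped.

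Gain, defined as a peak in swc4Δ replicates 1 and 2 but no WT peak, was called at 25 tRNA genes (9.09%), and at 5.23% of 6002 protein-coding promoters (500 bp upstream) and at 14.0% of 2181 merged regions present in each of a genotype's libraries. These shares have unlike bases, so the share of tRNA genes cannot be ranked against them. The tRNA genes and the promoters include those without a peak, and the promoter windows are longer than the genes. Every merged region had a peak in both libraries of a genotype. Loss, the reverse pattern, was called at 0 tRNA genes (a count with no test behind it), and at 1.05% of the promoters and 4.22% of the merged regions. A peak in all 4 libraries was found at 113 tRNA genes (41.1%), against 31.1% of the promoters, and 26 tRNA genes had none. The count of 25 became 66 without WT replicate 1, 55 when swc4Δ replicate 2 was left out, and 11 without chromosomes IV, V, VIII and XI. The count of 0 became 14 without swc4Δ replicate 1 and 1 without WT replicate 1. Gains were called at 14 of the 75 genes on chromosomes IV, V, VIII and XI (18.7%) and at 11 of the 200 on the others (5.5%). No share of promoters or merged regions was computed for these settings or parts.

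The highest point of a tRNA peak usually lay just past the downstream end of the gene, not at its start. The summit offset, counted from the gene start in the gene's own direction, had a median of 106.5 and 111 bp in WT versus 92 and 89 bp in swc4Δ. Summits past the gene's end made up 69.2% and 66.4% of pairs in WT versus 56.0% and 56.5% in swc4Δ. Summits inside the gene made up 20.3% and 14.9% in WT versus 32.0% and 28.3% in swc4Δ. Summits upstream of the start were 10.4% and 18.7% in WT, and in swc4Δ they were 29 of 241 pairs and 29 of 191, so they were the smallest class except in WT replicate 2. Overlap with the gene chose the peaks, and it did not use the side on which the summit lay.

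**Figure D1:**
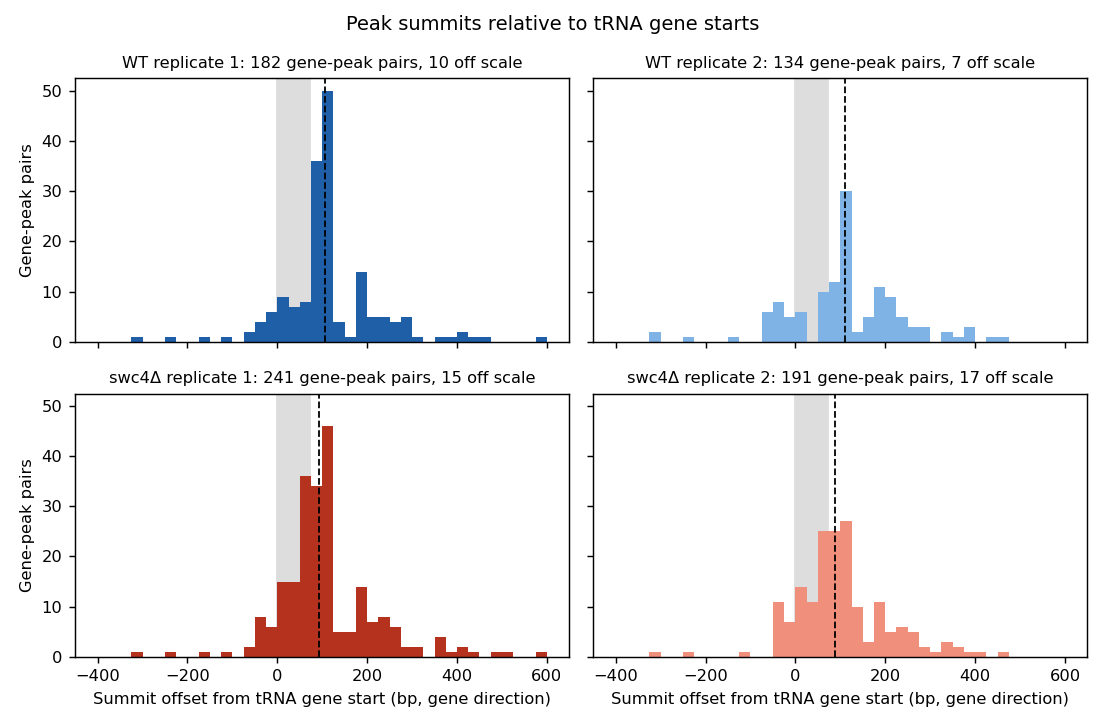
Number of tRNA gene and peak pairs (vertical axis) by summit offset from the tRNA gene start in bp (horizontal axis, 25 bp bins, positive values downstream), 1 panel per library, with the number of pairs off scale in its title. The grey band marks 73 bp, the median gene length, and the dashed line the median offset, which is 106.5 and 111 bp in WT versus 92 and 89 bp in swc4Δ.

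The fullest window of 25 bp was 100 to 124 bp past the start in every library, most clearly in WT replicate 1 and least in swc4Δ replicate 2. Summits also spread well beyond it. The lower and upper quartiles of the offset were 76 and 178.5 bp and 55.25 and 190.75 bp in WT. In swc4Δ they were 50 and 151 bp and 32.5 and 169 bp. Of the 182 pairs in WT replicate 1, 50 had a summit 100 to 124 bp past the start and 36 had one at 75 to 99 bp. In WT replicate 2 the same windows held 30 and 12 of 134 pairs. In the swc4Δ libraries they held 46 and 34 of 241 pairs and 27 and 25 of 191. The window of 50 to 74 bp, which is the last stretch of a gene of median length, held 8 and 10 pairs in WT versus 36 and 25 in swc4Δ. A smaller group lay 150 to 199 bp past the start in every library, with 15, 16, 19 and 14 pairs.

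The median offset, swc4Δ minus WT, differed by -18.25 bp, with means of 108.75 ± 3.18 bp (SD, n = 2) in WT and 90.5 ± 2.12 bp (SD, n = 2) in swc4Δ. The genotypes did not overlap (exact permutation p = 0.333). The share of summits from 100 bp upstream of the start to the gene's end was 26.9% and 29.1% in WT versus 38.6% and 37.7% in swc4Δ, a difference of 10.1 points (exact permutation p = 0.333). Adjusted by Benjamini-Hochberg over the 13 genotype comparisons, of which 2 were added after seeing the data, the smallest exact permutation p was 0.619.

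The difference was smaller over a fixed set of genes. Over the 113 tRNA genes with a peak in all 4 libraries, the median offset was 112 and 115 bp in WT versus 112 and 102 bp in swc4Δ, so that the genotypes overlapped and differed by 6.5 bp (exact permutation p = 0.667). Summits of the same gene differed by a median of 22 bp between the WT libraries, 26 bp between the swc4Δ libraries and 17 to 29 bp between a WT and a swc4Δ library. The distances between genotypes and within them were thus of the same size. The share of summits from 100 bp upstream to the gene's end still differed by 9.29 points over these genes (exact permutation p = 0.333).

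**Figure D2:**
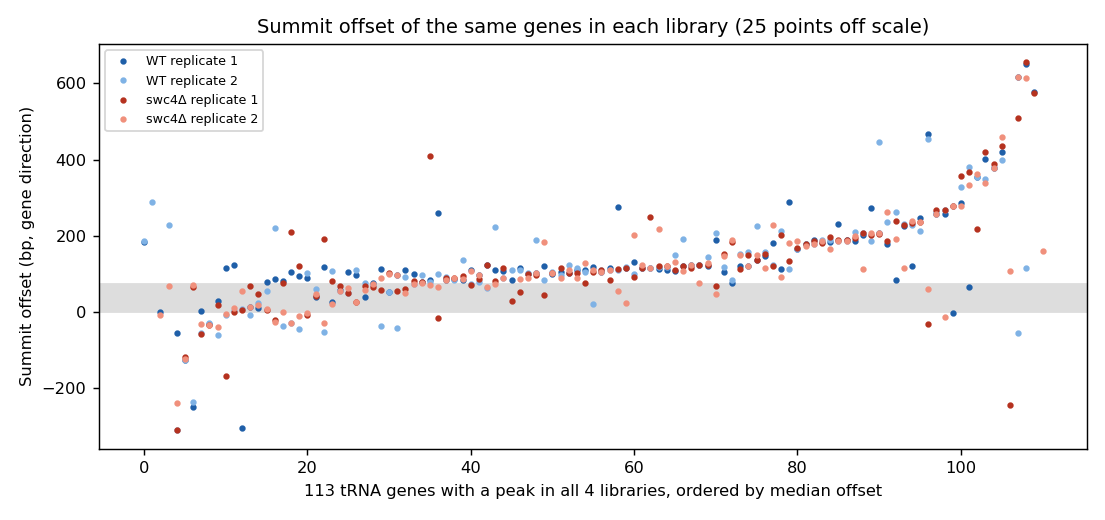
Summit offset from the tRNA gene start in bp (vertical axis) for the 113 tRNA genes with a peak in all 4 libraries, ordered along the horizontal axis by their median offset, with 1 point per library and the grey band marking 73 bp. At 44 genes the 4 points lie within 50 bp of each other, and 25 points lie outside the range drawn.

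Of the 113 genes, 56 had the summit past the gene's end in all 4 libraries, 6 had it inside the gene and 3 upstream in all 4, and 48 varied. The 4 summits lay within 50 bp of each other at 44 genes. Libraries of 1 genotype placed the summit in the same class at 83 genes in WT and 91 in swc4Δ. At 17 genes both swc4Δ offsets lay below both WT offsets and at 13 they lay above. Counted over merged regions with exactly 1 peak in each library, the summits of the genotypes did not overlap at 30 of 103 regions with a tRNA gene (29.1%), against 33.1% of all 1020 such regions, so this share was near the background.

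The 25 tRNA genes with a peak in swc4Δ alone had median offsets of 108 and 86 bp in the swc4Δ libraries. The summit lay past the gene's end at 17 of the 25 in each swc4Δ library. The remaining genes, with a peak in some libraries but not in either of these patterns, had shorter offsets. Their medians were 87 and 21 bp in WT, from 69 and 21 pairs, and 71 and 65 bp in swc4Δ, from 103 and 53 pairs. The median fold percentile of these peaks within their own list was 32.6 and 30.8 in WT versus 36.3 and 43.2 in swc4Δ, below the middle of each list, and their median width was 324, 294, 321 and 395 bp.

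Peak edges were uneven about the gene start in the same direction as the summits. The upstream edge lay at a median of -76 and -77.5 bp from the start in WT and at -89 and -86 bp for swc4Δ. The downstream edge lay 303 and 303 bp past the start in WT and 314 and 325 bp past it in swc4Δ. The peak covered the whole gene in 89.6% and 82.8% of pairs in WT and in 97.1% and 93.7% in swc4Δ. A peak that began inside the gene, leaving its start uncovered, was seen in 18 and 20 pairs in WT versus 6 and 10 in swc4Δ.

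Over all 275 genes, peaks covered the position 100 bp before the start at 25.5% and 20.7% of genes in WT versus 41.5% and 31.6% in swc4Δ. The start itself was covered at 59.6% and 41.5% in WT versus 85.5% and 65.8% in swc4Δ. At 100 bp past the start coverage was 65.5%, 48.7%, 86.9% and 68.7% in the same order. At 200 bp past the start it was still 57.1%, 42.5%, 75.3% and 58.5%. At 200 bp before the start it was 9.09%, 8.73%, 17.8% and 16%. The region covered thus reached much farther downstream than upstream in all 4 libraries.

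**Figure D3:**
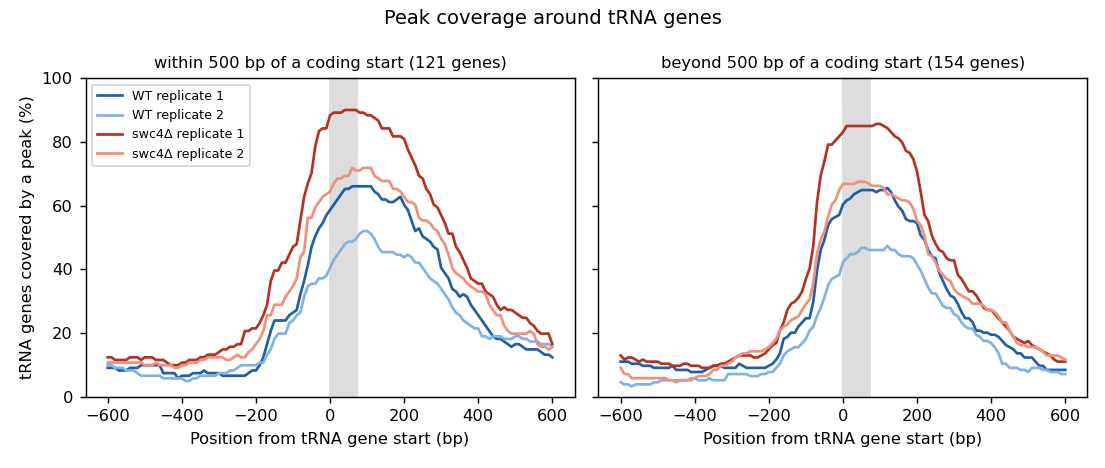
Share of tRNA genes covered by a peak in percent (vertical axis) by position from the gene start in bp (horizontal axis, gene direction), for 121 genes within 500 bp of a protein-coding start and 154 beyond it, with 1 line per library and the grey band marking 73 bp. Each line rises steeply before the start and declines slowly past the gene.

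The distance to protein-coding genes was measured from the tRNA gene start to the nearest annotated start of a protein-coding gene, retrotransposon genes included. It ranged from 19 to 3577 bp, with a median of 606 bp. The threshold of 500 bp put 121 genes (44.0%) within and 154 beyond. On either side of it stood YNCL0004C at 499 bp from MLH2 and YNCJ0005C at 530 bp from YJL114W. The nearest coding start lay downstream of the tRNA gene start for 185 genes and upstream for 90.

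Divided at 500 bp from a coding start, tRNA genes differed little in how often they had a peak, and the difference was larger at 1000 bp. Within 500 bp the share was 66.9% and 49.6% in WT versus 90.9% and 71.9% in swc4Δ. Beyond 500 bp it was 65.6% and 48.1% in WT versus 85.1% and 67.5% in swc4Δ. The share was lower beyond 500 bp in 4 of 4 libraries, with a mean of beyond minus within of -3.28 points (SD 2.2, n = 4; exact sign-flip test over libraries, two-sided, p = 0.125, the smallest it allows; adjusted p = 0.146 over 7 such tests, 2 of them added after seeing the data). Beyond minus within was -1.36 and -1.53 points in WT, and -5.84 and -4.37 in swc4Δ (exact permutation p = 0.333 for the difference between genotypes), and that difference changed sign without chromosomes IV, V, VIII and XI. Beyond minus within averaged -9.67 points with genes divided at 1000 bp and -6.54 points with the distance taken from the gene's edge, each lower beyond in 4 of 4 libraries (exact sign-flip p = 0.125). It averaged -1.98 points with equal numbers of peaks per list (exact sign-flip p = 0.125). It averaged -0.974 points with a −log10 q of at least 5 and -2.55 points without chromosomes IV, V, VIII and XI. In both of these settings the libraries did not all go the same way (exact sign-flip p = 0.375 in each). At 500 to 1000 bp the share was 72.7%, 53.2%, 87.0% and 75.3%, above the class beyond 1000 bp in each library. It was also above the class within 500 bp in all libraries but swc4Δ replicate 1. Genes with a peak in swc4Δ alone were 12 of 121 within 500 bp (9.92%) and 13 of 154 beyond (8.44%), and genes with a peak in all 4 libraries were 50 (41.3%) and 63 (40.9%).

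**Figure D4:**
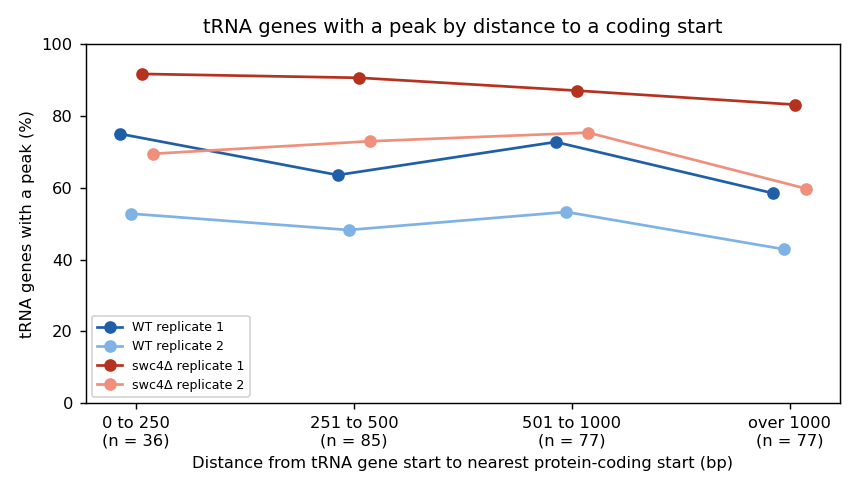
Share of tRNA genes with a peak in percent (vertical axis) by distance from the gene start to the nearest protein-coding start (horizontal axis, 36, 85, 77 and 77 genes per class), with 1 line per library. In each library the class beyond 1000 bp is the lowest, at 58.4% and 42.9% in WT versus 83.1% and 59.7% in swc4Δ.

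The median summit stayed downstream of the tRNA gene start whichever way the coding start lay, though not always past the gene's end. Where a coding start lay within 500 bp downstream, the median offset was 111 and 119 bp in WT versus 103 and 84 bp in swc4Δ, from 55, 39, 75 and 61 pairs. Where it lay within 500 bp upstream, the median offset was 106 and 117 bp in WT versus 79 and 157 bp in swc4Δ, from 26, 21, 35 and 26 pairs. In that second group only 23.1%, 14.3%, 17.1% and 19.2% of summits were displaced toward the coding start. Beyond 500 bp the medians were 105, 110, 94.5 and 89 bp with the coding start downstream and 99.5, 104, 79 and 89 bp with it upstream. In this last group, swc4Δ replicate 1 had 44.2% of summits past the gene's end and 41.9% inside the gene, and its median summit lay inside. Over both sides within 500 bp, the displacement toward the coding start had a median of 93 and 52.5 bp in WT versus 67 and 35 bp in swc4Δ. Of these 121 genes, 83 had the coding start downstream and 38 upstream.

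The unsigned distance of the summit from the gene start was smaller beyond 500 bp than within it in 4 of 4 libraries. Its median was 115 and 119 bp within 500 bp in WT, and 106 and 110.5 bp beyond. In swc4Δ it was 110.5 and 104 bp within and 96 and 101.5 bp beyond. Beyond minus within averaged -8.63 bp (SD 4.91, n = 4) had an exact sign-flip p of 0.125, but its size depended on the setting. It was 1.625 bp when genes were divided at 300 bp and -23.5 bp when they were divided at 1000 bp. It was -19.6 bp over genes with a peak in all 4 libraries, -18.75 bp with a −log10 q of at least 5, -1.5 bp without chromosomes IV, V, VIII and XI and -0.375 bp among peaks under 800 bp.

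Measured from the summit, the nearest protein-coding start was farther from tRNA peaks than from other peaks. The median distance was 473 and 472 bp in WT versus 493.5 and 465 bp in swc4Δ, against 257.5, 296, 240.5 and 276.5 bp for all other peaks. The gap of 208 bp on average (SD 34.1, n = 4) went the same way in 4 of 4 libraries (exact sign-flip p = 0.125, chosen after seeing the data). These peaks were chosen by overlap with tRNA genes, which lay a median of 606 bp from a coding start. The test cannot separate the gap from that choice. Between genotypes the distance at tRNA peaks overlapped (exact permutation p = 1). The summit lay nearer to the start of its tRNA gene than to any coding start in 82.0%, 84.1%, 82.6% and 80.1% of peaks. Choosing peaks by overlap with a tRNA gene favours such summits.

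Whether peaks at tRNA genes were narrower or wider than other peaks depended on which peaks were counted. Their median width was 391.5 and 401.5 bp in WT versus 424.5 and 466 bp in swc4Δ, and that of all other peaks was 416, 403, 435 and 435 bp. tRNA peaks were the narrower in 3 of 4 libraries, with a mean difference of -1.38 bp (SD 23.6, n = 4; exact sign-flip p = 0.875). Peaks of 800 bp or more made up 13.5%, 12.9%, 18.2% and 17.7% of tRNA peaks and 18.1%, 15.99%, 19.7% and 20.5% of the others. Among peaks under 800 bp tRNA peaks were the wider, by 25.4 bp on average. With a −log10 q of at least 5 the difference averaged -58.4 bp (exact sign-flip p = 0.125), and with equal numbers of peaks per list -28.5 bp (exact sign-flip p = 0.25). Over merged regions with 1 peak in each library, the median width with a tRNA gene was 430, 405, 547 and 474 bp, against 528, 465, 586 and 533 bp for the other regions, so that tRNA regions were the narrower in 4 of 4 libraries.

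**Figure D5:**
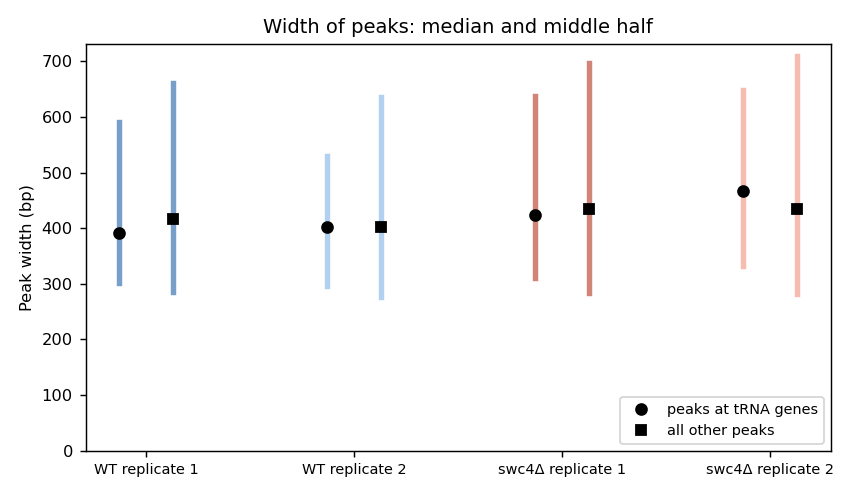
Peak width in bp (vertical axis) in each library for peaks at tRNA genes (circles) and all other peaks (squares), with the symbol at the median and the bar from the lower to the upper quartile. The medians lie between 391.5 and 466 bp, and the bars of the other peaks reach higher.

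Widths were larger in swc4Δ, as they were at peaks elsewhere. The mean of the medians was 396.5 ± 7.07 bp (SD, n = 2) in WT and 445.25 ± 29.3 bp (SD, n = 2) in swc4Δ, without overlap (exact permutation p = 0.333). The difference of 48.75 bp was 28 bp without swc4Δ replicate 2, 19 bp without chromosomes IV, V, VIII and XI and 23.75 bp among peaks under 800 bp. At the 113 genes with a peak in all 4 libraries the medians were 461 and 413 bp in WT versus 597 and 505 bp in swc4Δ. There the 2 swc4Δ libraries differed by a median of 94 bp per gene and the WT libraries by 79 bp, against 86 to 100 bp for a WT and a swc4Δ library. Both swc4Δ widths exceeded both WT widths at 38 of 103 merged regions with a tRNA gene (36.9%), against 37.5% of all 1020 regions. Both lay below at 3 (2.91%), against 10.4% of all regions. These counts of 38 and 3 depended on having 4 libraries. Leaving out WT replicate 1 gave 70 and 14, and leaving out WT replicate 2 gave 62 and 29. Leaving out swc4Δ replicate 1 gave 46 and 25, and leaving out swc4Δ replicate 2 gave 70 and 11. No share over all regions was computed for these settings.

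tRNA peaks within 500 bp of a coding start were wider than those beyond in 4 of 4 libraries, but width did not fall steadily with distance. Beyond minus within was -37 and -43 bp in WT versus -67 and -43.5 bp in swc4Δ, with a mean of -47.6 bp (SD 13.2, n = 4; exact sign-flip p = 0.125). Genes more than 1000 bp away had the narrowest peaks, with medians of 314 and 329 bp in WT versus 337.5 and 393.5 bp in swc4Δ. At distances of 500 to 1000 bp the medians were 432, 436, 539 and 539 bp. In peaks of 800 bp or more, 54.2%, 64.7%, 51.2% and 60.6% of summits lay over 300 bp from the tRNA gene start. A narrow peak that overlaps a tRNA gene leaves little room for such a summit, so the tie between width and offset is set in part by how the peaks were chosen. Beyond minus within in width was -117.5 bp with genes divided at 1000 bp, -82.1 bp over genes with a peak in all 4 libraries and -19.6 bp among peaks under 800 bp.

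The authors' fold described tRNA peaks as ordinary members of each list. Its median was 2.58 and 2.42 in WT versus 2.86 and 2.53 in swc4Δ, against 2.50, 2.28, 2.72 and 2.38 for other peaks of the same list. The highest fold of a peak that overlaps a tRNA gene was 5.80 and 5.00 in WT versus 7.84 and 5.96 in swc4Δ, while the highest of each list was 12.7, 12.1, 12.7 and 11.3. These are folds of summits far from the tRNA gene. The WT values belong to YNCF0014C, with the summit 1657 and 1656 bp past its start. The value of 7.84 belongs to YNCK0019W, with the summit 960 bp past its start. The value of 5.96 belongs to a peak of 1852 bp that also covers SCR1, another RNA polymerase III gene, and has its summit there, 1013 bp from the tRNA gene YNCE0025C. Within and beyond 500 bp the median fold was 2.54 and 2.63 in WT replicate 1, 2.36 and 2.46 in WT replicate 2, 2.84 and 2.92 in swc4Δ replicate 1, and 2.53 and 2.59 in swc4Δ replicate 2. Folds were not tested between libraries.

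tRNA genes over 90 bp had peaks more often than those up to 76 bp, but the share did not increase steadily with length. Most tRNA genes of this length carry an intron, which the annotation used here does not mark. Of the 53 genes over 90 bp, 84.9% and 66.0% had a peak in WT versus 94.3% and 86.8% in swc4Δ. Of the 192 genes up to 76 bp, 63.0% and 46.4% had one in WT versus 85.4% and 66.1% in swc4Δ. The 30 genes of 77 to 90 bp had a peak in 53.3%, 33.3%, 90% and 60%, below the shortest class in 3 of 4 libraries. The genes over 90 bp lay above the shortest class in 4 of 4 libraries, by 17.8 points on average (SD 5.98, n = 4; exact sign-flip p = 0.125, chosen after seeing the data). The median summit offset was 111, 115, 98.5 and 96 bp in genes over 90 bp and 105, 106, 83.5 and 86 bp in those up to 76 bp. In genes of 77 to 90 bp it was 116, 248, 115 and 160.5 bp, from 16, 10, 27 and 18 pairs, so it was not constant across lengths. Counted from the gene's last base, the summit lay 7 and 10 bp past the end in long genes in WT, and 33 and 35 bp past it in short ones. In swc4Δ these values were -1.5 and -9.5 bp in long genes, just inside the gene, and 12 and 15 bp in short ones.

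Among tRNA genes beyond 500 bp with a peak in all 4 libraries, YNCE0018W on chromosome V (354934 to 355005, R64) had a peak of high fold rank. Its summit lay 106, 109, 110 and 105 bp past the gene start, in the order WT replicates 1 and 2 and swc4Δ replicates 1 and 2. The peak was 572 and 555 bp wide in WT versus 1133 and 1499 bp in swc4Δ, so the summit held its place while the edges moved apart. YNCG0033W (VII, 739122 to 739195), upstream of the asparagine synthetase gene ASN2, had summits at 190, 187, 190 and 185 bp and widths of 810, 777, 850 and 787 bp. All 4 libraries placed its peak alike. TRR4 (XII, 818609 to 818680), an arginine tRNA gene 703 bp from RPL26A, a ribosomal protein gene, had summits at 419, 399, 436 and 459 bp. YNCG0040C (VII, 857378 to 857491) had them at 578, 717, 575 and 731 bp in peaks of 1429 to 1811 bp.

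Within 500 bp, the strongest peaks often had a summit far from the tRNA gene. YNCF0014C (VI, 226688 to 226760), 203 bp from CDC26, which codes for a subunit of the anaphase-promoting complex, had summits 1657, 1656, 1662 and 1501 bp past its start. The peak there was 2342 to 2787 bp wide. YNCM0019W (XIII, 352280 to 352370) had summits at 900, 901, 910 and 904 bp. SUP17 (IX, 248850 to 248931) had them at 401, 348, 419 and 339 bp. At these 3 genes the tRNA gene lay on the flank of a wide peak in every library. YNCD0020W (IV, 992832 to 992902) had its summit at 179, 179, 179 and 173 bp, in peaks of 430 and 342 bp in WT versus 607 and 701 bp in swc4Δ. YNCD0026W (IV, 1201750 to 1201822), 378 bp from the proteasome gene SEM1, had it at 258, 261, 267 and 258 bp.

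A few genes had the summit at the gene itself. YNCI0002W (IX, 175031 to 175103) had summits at 10, 23, 48 and 19 bp, all inside the gene. YNCM0020W (XIII, 363064 to 363135), beside the retrotransposon gene YMR045C, had them at -31, -29, -34 and -34 bp, all just upstream. Its peaks were 410, 286, 377 and 266 bp wide, and the widths overlapped between genotypes. Both swc4Δ summits lay slightly farther upstream than both WT summits, by a few bases. YNCN0012C (XIV, 569867 to 569940) had offsets of 12, -9, 67 and 12 bp.

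The largest differences in summit position between genotypes are given as values, with no test. At YNCL0009C (XII, 448650 to 448721), 407 bp from the RNase H2 subunit gene RNH203, the summit lay 183 and 187 bp past the start in WT, in peaks of 666 and 1030 bp. In swc4Δ the offsets were -2139 and -2187 bp, far upstream, in peaks of 5539 and 3266 bp. SUF2, a proline tRNA gene (III, 123577 to 123648), had summits at 955 and 810 bp in WT versus -244 and 107 bp in swc4Δ, within peaks of 1558 to 1773 bp in all 4 libraries. At YNCD0004W (IV, 410379 to 410451) 1 library stood apart, with offsets of 85, 111 and 29 bp in the others and 1065 bp in swc4Δ replicate 2, where the peak was 1931 bp wide. SUP61, the essential serine tRNA gene (III, 227942 to 228042), likewise had summits at 816, 815 and 813 bp and at 160 bp in swc4Δ replicate 2. YNCL0039W (XII, 784354 to 784453) had offsets of -597, 288, -589 and -679 bp, with WT replicate 2 apart.

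Few genes had smaller widths in swc4Δ, and often a single library set the difference. None of these single-gene differences was tested. YNCE0009C (V, 135425 to 135497) had widths of 1214 and 235 bp in WT versus 303 and 273 bp in swc4Δ, so that its WT mean rested on replicate 1. YNCN0007W (XIV, 443006 to 443119) had 1294 and 675 bp in WT versus 662 and 411 bp in swc4Δ, without overlap between genotypes. YNCJ0002C (X, 115939 to 116010) had 1158 and 1060 bp in WT versus 1051 and 424 bp in swc4Δ. The largest increases, beside YNCL0009C, YNCD0004W and YNCE0018W, included YNCK0014W (XI, 379680 to 379753), with 597 and 527 bp in WT versus 1557 and 667 bp in swc4Δ. Apart from YNCL0009C on chromosome XII, these genes lie on IV, V and XI, among the chromosomes singled out above.

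Among the tRNA genes with a peak in both swc4Δ libraries alone, peaks beyond 500 bp took different shapes. YNCL0007W (XII, 374355 to 374427), 2735 bp from HOG1, the kinase gene of the osmotic stress response, had small peaks of 314 and 275 bp with summits at 96 and 111 bp and folds of 3.11 and 2.53. YNCI0005W (IX, 210665 to 210738) had peaks of 269 and 264 bp with the summit at 23 bp in both libraries and folds of 2.76 and 2.49. Both stood alone, without a coding start within 1000 bp. YNCL0035C (XII, 656934 to 657006) had peaks of 349 and 220 bp with summits at -33 and 30 bp. YNCK0010W (XI, 302918 to 303023) had wide peaks of 1265 and 1033 bp with summits at 89 and 54 bp. At YNCK0006C (XI, 162487 to 162558) the libraries disagreed, with a peak of 5018 bp and an offset of -2102 bp in replicate 1, and a peak of 549 bp with its summit at 64 bp in replicate 2. YNCJ0014C (X, 374506 to 374577) had summits at 268 and 261 bp. Of the genes named in this group, only YNCK0010W and YNCK0006C lie on the chromosomes singled out above.

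Within 500 bp, 4 of the 6 leading genes of this kind had peaks of 987 to 3548 bp whose summit lay over 200 bp away. YNCK0019W (XI, 517988 to 518060) had summits at 960 and 952 bp in peaks of 3539 and 3548 bp. TRT2, a threonine tRNA gene (XI, 46735 to 46806), had summits at 321 and 337 bp, in peaks of 1646 and 995 bp. SUP6 had them at 487 and 422 bp and YNCK0008W at 260 and 229 bp. YNCD0014C (IV, 645153 to 645224), 294 bp from the glutaredoxin gene GRX3, had small peaks of 337 and 274 bp with summits inside or just past the gene, at 65 and 78 bp. YNCK0004W had summits at 99 and 46 bp. Apart from SUP6 on chromosome VI, these leading genes lie on IV or XI, among the chromosomes singled out above.

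The genes at the extremes of distance behaved differently. YNCN0009W, 19 bp from the start of YNL042W-B, had summits at 116, 115, 248 and 115 bp in peaks of 858 to 1096 bp. YNCP0023W, 36 bp from YPR159C-A, had them at 379, 381, 387 and 379 bp. SUF11 and EMT3 lacked a peak in WT replicate 2 and swc4Δ replicate 2, respectively, and their summits lay between -68 and 83 bp in the other libraries. The 4 genes farthest from a coding start, at 2661 to 3577 bp, had few peaks. YNCB0005C and YNCL0050C had none, YNCB0004W had 1 in swc4Δ replicate 1 (275 bp wide, fold 1.93), and YNCL0007W is described above.

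Of the 47 tRNA genes with a name of their own, many found as suppressors of nonsense or frameshift mutations, 33 and 23 had a peak in WT versus 40 and 34 in swc4Δ. Families with the same product did not share a pattern. The 8 tyrosine tRNA genes SUP2 to SUP8 and SUP11, each 89 bp long, had a peak at 4 and 2 genes in WT versus 7 and 4 in swc4Δ. SUP2 and SUP3 had a peak in all 4 libraries, SUP6 and SUP8 in both swc4Δ libraries alone, and SUP11 in none. SUP2 had summits at 120, 227, 234 and 238 bp, and SUP3 at 285, 327, 356 and 277 bp. Of the 4 initiator methionine genes, IMT3 had a peak in all libraries, with offsets of 119, -54, 192 and -30 bp, whereas IMT1 had 1 only in swc4Δ replicate 1 and IMT4 only in swc4Δ replicate 2. Of the 5 elongator methionine genes, EMT2 and EMT5 had a peak in all 4 libraries, with EMT2 summits at 105, 50, 50 and 64 bp.

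Other genes transcribed by RNA polymerase III were set beside the tRNA genes. SNR6, the U6 snRNA gene, had a peak in all 4 libraries with summits at 115 and 223 bp in WT versus 108 and 224 bp in swc4Δ, and widths of 401, 463, 463 and 521 bp. These lay within the range of tRNA genes. SNR52, a snoRNA gene, had its summit upstream in every library, at -39, -68, -58 and -49 bp. RPR1, the RNase P RNA gene, had summits at 34, 36, 29 and 106 bp with folds of 5.29, 5.04, 6.07 and 5.66. SCR1, the signal recognition particle RNA gene, had them at 179, 275, 269 and 275 bp inside a gene of 522 bp, with folds of 5.46, 5.16, 7.37 and 5.96. In swc4Δ replicate 2 this is the peak that is also counted at YNCE0025C. Of the 6 annotated 5S rRNA genes, RDN5-1 and RDN5-6 had a peak in all 4 libraries and RDN5-2 to RDN5-5 in none. These genes lie in the repeated rDNA, where peaks depend on the handling of reads with several matches.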

How the data were processed

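ATAC-seq was deposited as 1 peak list per library (2 WT, 2 swc4Δ). Per the submitters' processing notes, the tools were deepTools 1.5.11, SAMtools 1.4, Picard 2.18.7, Bowtie2 2.3.1 and Trim Galore 0.5.0, and the build was sacCer3. Not given in the sources used here were the caller that made the peaks, whether reads were shifted for Tn5, and what was done with multiply matching reads. Peaks carried the name of 1 library, so they were called per library. The deposited values were a fold (ratio) of the summit over background, −log10 p and q values and the summit position, which sets the offset. No replicates were pooled. The 2 deposited genotype lists were not used here.

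Genes came from the RefSeq table of R64, which sacCer3 names, with strand read from the systematic name. No genome or sequence table was used, so no sequences are shown. Offset, width, distance and overlap were computed with Python 3.11.15, numpy 2.4.6, pandas 2.3.3, scipy 1.17.1 and matplotlib 3.10.9. Offset, width and the share of genes with a peak were tested on simulated data, and distance was not. Regions joined peaks that shared at least 1 bp. The library was the unit of every test: exact permutation of 2 against 2 libraries (smallest p 0.333) or exact sign flips over 4 (smallest p 0.125), with Benjamini-Hochberg adjustment. Replicate numbers in the labels mark no shared batch, so libraries were not paired. Alternatives were a stricter q, a larger overlap, equal list sizes, other distance thresholds, narrower or single-gene peaks, chromosomes left out and each library left out.

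Members, lists and tests were chosen with earlier results of these data known. Named genes were those with the highest fold rank, the smallest and largest offset, move, width change and distance within fixed classes, plus genes with a name of their own. Their grouping into families of 1 product was made after their values were seen.
The comparisons of summit distance with other peaks and of long with short genes, and the restriction to genes with a peak in all 4 libraries, were added after seeing the data.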

Additional observations from a re-analysis of the deposited data

How the results depend on the processing

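Of the alternatives run, 249 values kept their direction, or stayed within 1.5 times for a count, 19 changed sign and 18 counts moved further; the comparison over genes with a peak in all 4 libraries was added after seeing the data. The differences between genotypes in share, offset, summit position and width of tRNA peaks kept their direction in every alternative run, but not their size: they ranged from 12 to 30.2 points in share, -21.25 to -6.5 bp in offset, 9.04 to 13.2 points in summits at the gene and 19 to 114 bp in width. With peaks of −log10 q of at least 5, the genotype difference in far minus near width became 17.25 bp and regions narrower in swc4Δ numbered 5. With at least 50% of the gene overlapped, tRNA minus other width averaged 0.625 bp, and under 800 bp it averaged 25.4 bp. With equal numbers of peaks, 2 genes were lost. The genotype difference in far minus near unsigned offset, only 0.25 bp in the main setting, was then -7.5 bp. It was -4.25 bp for peaks over a single tRNA gene, -12 bp with a division at 1000 bp and -7.75 bp over genes with a peak in all 4 libraries, where the summit's distance to a coding start differed by -4.5 bp. Without IV, V, VIII and XI, the genotype difference in far minus near share was 2.78 points and in width 40.75 bp, with 11 genes gained and 25 regions wider. With a division at 300 bp, these genotype differences were 0.0483 points in share and 23 bp in displacement toward the coding start, and far minus near unsigned offset averaged 1.625 bp. Measured from the gene's edge, the share differed by 0.495 points. No share over all promoters or regions was computed beside the counts in these settings. The causes of these changes were not tested.

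Leaving out 1 library gave 30 to 66 genes gained, 0 to 14 lost, 46 to 70 regions wider and 11 to 29 narrower, with no background share computed beside them. The genotype difference in share ran from 12 to 30.2 points and in width from 28 to 69.5 bp. tRNA minus other width averaged -12.2 to 6.33 bp. Genotype differences ranged from -7.5 to 21 bp in summit distance to a coding start, -7.25 to 57.25 bp in that distance minus that of other peaks, and -5.75 to 6.25 bp in far minus near unsigned offset. With the replicate block, gains summed over the 2 same-numbered pairs were 134 and losses 18, and 11 regions were narrower in each pair. Paired p was at least 0.5, the smallest 2 pairs allow. Same-numbered libraries deviated together with a correlation of 0.124 over 1020 regions, across regions that are not independent. Summits rest on 40 to 198 fragments, which limits how finely offsets can be read.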
